A study of Mus musculus with 12 samples.

Results

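Kit and 9 other genes for surface molecules of blood progenitors were followed through 12 RNA-seq libraries of Kit-enriched spleen cells from mice carrying leukaemia. The members, chosen by gene symbol, were Kit, Flt3, Csf1r, Csf2ra, Csf2rb, Csf2rb2, Csf3r, Il3ra, Ifngr1 and Cd34, and all 10 were found among the 24310 features of each library. CMM is a transplantable GFP-marked line of acute myeloid leukaemia cells with inv(16), grown here in the spleens of C57BL/6 mice. Mice with about 1% GFP-positive blood cells were injected intravenously 3 times, every other day, with PBS, with CpG-scrODN (a TLR9 ligand carrying a scrambled oligonucleotide) or with CpG-STAT3dODN (the same ligand carrying a decoy that STAT3 binds), and spleens were collected 1 day later. Cells bearing c-Kit, the protein encoded by Kit, were then enriched with a positive selection kit, so Kit was itself the selection marker. All groups share the leukaemia line, the host strain and this enrichment; the series design also speaks of sorting GFP-positive cells, which the extraction protocol does not list. Each group had 4 libraries, and the labels do not say whether each came from its own mouse, so a p-value here reflects only how these libraries vary, which may be technical.

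Labels and data headers disagreed on the group in 12 of 12 libraries: the header read DEC under the label PBS, PBS under the label CpG-scrODN and SCR under the label CpG-STAT3dODN. Groups are named by their labels below, and a difference between them is not read as the effect of either oligonucleotide. Depth, estimated from the RPKM (read number scaled to transcript length and to the size of the library) that 1 read is worth, was 31610000 to 36360000 reads per library, and in the shallowest library each unit of RPKM equals 31.6 reads per kilobase. Replicate 4 labelled PBS and replicate 4 labelled CpG-STAT3dODN stood apart from the other 10. The immediate-early gene Fos was at 12.9 and 5.91 RPKM there, against 486 to 1156 in the rest, and results that rest on these libraries are given with and without them.

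Growth factor receptors tell blood progenitors to survive, divide and mature. Kit and Flt3 are receptor tyrosine kinases for stem cell factor and FLT3 ligand and are typical of early progenitors, while Csf1r is the kinase receptor of M-CSF and marks the monocyte and macrophage line. The receptors of GM-CSF, IL-3 and IL-5 each pair a specific alpha chain (Csf2ra or Il3ra among the genes here) with a common beta chain, Csf2rb, and the mouse has an additional beta chain, Csf2rb2, that serves IL-3. Csf3r is the G-CSF receptor of the neutrophil line, Ifngr1 is the ligand-binding chain of the interferon gamma receptor, and Cd34 is a sialomucin found on stem and progenitor cells.

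The promoter letters of 4 members are shown because these genes carry the main results: Csf2rb2 for the largest differences between libraries, Csf2ra for the only call between groups, Csf3r because it followed Csf2ra from library to library, and Kit as the selection marker. Each line gives the 250 bases before the RefSeq start of transcription, read 5′ to 3′ on the gene's strand in the build GRCm38.p6, which the mm10 coordinates share. Capitals mark matches to GAGGAAG, a core of PU.1 sites, or, in Csf2rb2, also to TTCNNNGAA, the spaced pair that STAT factors bind. The Csf2rb2 window is chr15:78305722-78305971 on the minus strand, that of Csf2ra is chr19:61228419-61228668 on the minus strand, that of Csf3r is chr4:126024409-126024658 on the plus strand, and that of Kit, the first of its 2 entries, is chr5:75574737-75574986 on the plus strand. The starts used are those of the RefSeq promoter entries and need not be the outer end of the gene: the Csf3r window lies inside the span RefSeq gives for the gene, which begins at 126023441, and the end of the Csf2ra window, with both of its matches, lies inside the span that reaches 61228461.
Csf2rb2: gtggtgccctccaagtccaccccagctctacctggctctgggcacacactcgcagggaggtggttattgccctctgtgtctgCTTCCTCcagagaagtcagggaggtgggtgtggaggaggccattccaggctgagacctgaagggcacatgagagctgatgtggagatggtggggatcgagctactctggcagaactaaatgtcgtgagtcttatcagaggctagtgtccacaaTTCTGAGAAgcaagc
Csf2ra: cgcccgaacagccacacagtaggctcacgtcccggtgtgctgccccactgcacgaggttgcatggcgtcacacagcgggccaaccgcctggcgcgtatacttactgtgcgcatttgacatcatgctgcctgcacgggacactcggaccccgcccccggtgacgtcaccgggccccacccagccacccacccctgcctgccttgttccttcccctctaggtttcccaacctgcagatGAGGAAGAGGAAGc
Csf3r: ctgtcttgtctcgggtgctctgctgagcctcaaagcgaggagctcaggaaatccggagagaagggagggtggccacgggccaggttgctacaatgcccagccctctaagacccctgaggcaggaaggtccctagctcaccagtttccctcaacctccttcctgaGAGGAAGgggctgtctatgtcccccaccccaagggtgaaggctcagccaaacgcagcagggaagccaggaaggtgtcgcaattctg
Kit: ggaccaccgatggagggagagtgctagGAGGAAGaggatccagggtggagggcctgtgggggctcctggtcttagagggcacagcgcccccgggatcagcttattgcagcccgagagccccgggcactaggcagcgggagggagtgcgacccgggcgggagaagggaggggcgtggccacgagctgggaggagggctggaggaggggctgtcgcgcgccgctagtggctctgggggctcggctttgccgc

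Both strands were searched, with TTCNNNGAA, GAGGAAG, an NF-kB motif, TGTGGT for RUNX factors and AGATAA for GATA factors. GAGGAAG was found in the 4 windows shown and in no other of the 8 members with a RefSeq promoter entry (Csf2rb and Csf1r had none), and 10.6% of all 32851 promoter windows of this length hold it. In Csf2ra a pair of matches, which share 1 base, ends next to the start of transcription. TTCNNNGAA, which 7.02% of windows hold, was found in Csf2rb2 alone, beginning 15 bases before the start. The NF-kB motif, TGTGGT and AGATAA, held by 1.41%, 14% and 9.99% of windows, were found in 0 of the 8. These matches describe the letters of the windows and were not tied to binding here.

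Per length, the beta chains dominated. Ordered by the median RPKM over the 12 libraries, the level of Csf2rb was 93.9, of Csf2rb2 52.6, of Kit 28.5, of Cd34 23.8, of Csf2ra 14.4, of Csf1r 9.37, of Il3ra 8.81, of Ifngr1 8.68, of Csf3r 3.59 and of Flt3 0.84. Csf2rb was above Csf2rb2, and Csf2rb2 above Kit, in 12 of 12 libraries. Kit was above Cd34 in 10 of 12 and Cd34 above Csf2ra in 8 of 12, while Csf1r, Il3ra and Ifngr1 changed places from library to library and could not be ordered. Csf3r was below Ifngr1 and above Flt3 in all 12. Flt3 reached an RPKM of 1 in 4 libraries, 3 of them labelled PBS, and passed the filter on low values only through these. The other 9 were above 1 in every library.

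**Figure D1:**
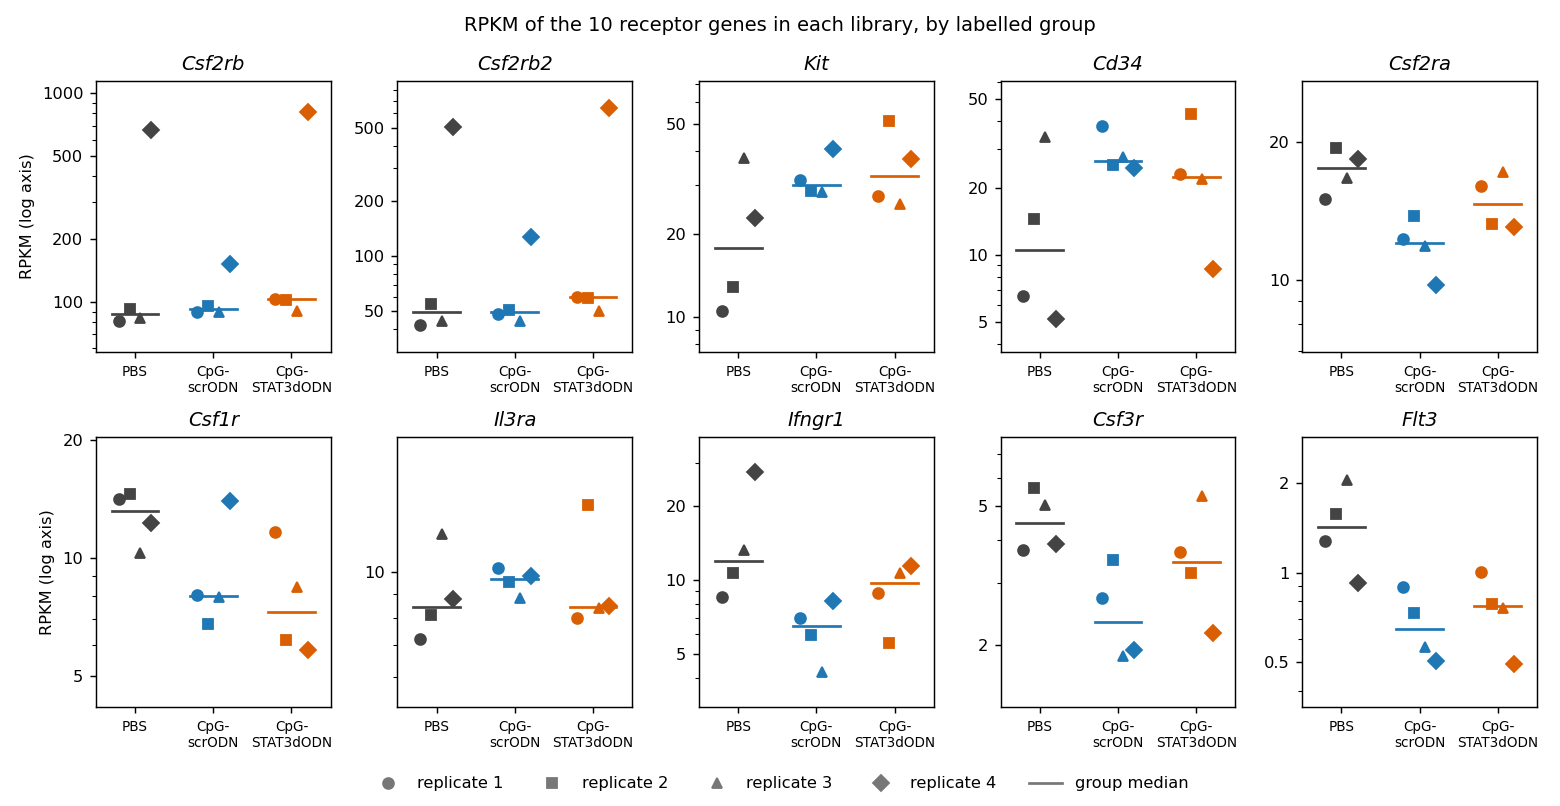
Each panel plots the RPKM (log axis) of 1 receptor gene in the 12 libraries, by labelled group on the horizontal axis; marker shapes give the replicate number and bars the group median. Csf2rb and Csf2rb2 stand far above their groups in replicate 4 labelled PBS and CpG-STAT3dODN, at 665 and 817 RPKM for Csf2rb, and Kit is at 10.5 and 12.8 RPKM in replicates 1 and 2 labelled PBS.

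Kit, on chromosome 5 from 75574987 to 75656722 (mm10, as all positions here), was expressed in every library, as the selection requires, and did not pass the test between groups. In replicates 1 to 4 labelled PBS it was at 10.5, 12.8, 37.8 and 22.9 RPKM. In those labelled CpG-scrODN it was at 31.3, 28.7, 28.3 and 40.5 RPKM, and in those labelled CpG-STAT3dODN at 27.6, 51.1, 25.7 and 37.4 RPKM. The libraries labelled PBS spread most and overlapped with both other groups through replicate 3. On the log2(RPKM + 1) scale, which understates the change of low genes, the difference was 0.75 ± 0.34 (SE) for CpG-scrODN minus PBS (95% interval 0.00 to 1.49, limma adjusted p = 0.319). For CpG-STAT3dODN minus PBS it was 0.84 ± 0.34 (SE) (interval 0.10 to 1.59, limma adjusted p = 0.415). Between the labelled oligonucleotide groups it was 0.10 (interval -0.65 to 0.84, limma adjusted p = 0.971). With library quality weights, which count a noisy library less, the comparisons with PBS both passed, at 1.05 (limma adjusted p = 0.00701) and 0.99 (limma adjusted p = 0.0133). In each comparison this was the only 1 of 23 alternative settings in which Kit passed. With weights 1812 and 1248 of all 10886 genes were called in these comparisons, against 452 and 202 in the main fit.

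Red cell transcripts were highest where Kit was lowest in the groups labelled PBS and CpG-STAT3dODN, but not in the group labelled CpG-scrODN. The mean log2 level of 13 measured erythroid markers, none of them at 0 in any group, was 8.08, 6.57, 4.42 and 5.28 in replicates 1 to 4 labelled PBS. It was 5.95, 5.97, 5.58 and 4.90 in replicates 1 to 4 labelled CpG-scrODN, where Kit was lowest in replicate 3, and 5.52, 4.37, 7.15 and 6.40 in replicates 1 to 4 labelled CpG-STAT3dODN, where replicate 2 had the highest Kit and replicate 3 the lowest. The summed RPKM of the list ran from 496 to 14237, from 926 to 2324 and from 472 to 6271 in the 3 groups. Its part in the Kit values was not tested. In bulk libraries like these, fewer cells of a type and less RNA per cell cannot be told apart.

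Cd34, on chromosome 1 from 194938821 to 194961292, was at 6.53, 14.5, 33.8 and 5.15 RPKM in replicates 1 to 4 labelled PBS. It was at 38, 25.4, 27.6 and 24.5 RPKM in those labelled CpG-scrODN, and at 23, 43.1, 22 and 8.70 RPKM in those labelled CpG-STAT3dODN. Replicate 3 labelled PBS lay among the other groups, so they overlapped. The difference of 1.23 ± 0.53 (SE) for CpG-scrODN minus PBS, on the log2 scale with an interval of 0.06 to 2.39, did not pass (limma adjusted p = 0.29), and neither did that of 0.81 for CpG-STAT3dODN minus PBS (limma adjusted p = 0.835). Between the labelled oligonucleotide groups it was -0.42 (interval -1.58 to 0.74, limma adjusted p = 0.96). With library quality weights, where many more genes were called than in the main fit, the first 2 passed, at 1.26 and 1.02 (limma adjusted p = 0.0131 and 0.0431). In each comparison this was the only 1 of 23 settings in which Cd34 passed. Without both libraries of low Fos the 3 Cd34 differences were 0.88, 0.86 and -0.02, and none passed. The last, -0.42 in full, thus rested on replicate 4 labelled CpG-STAT3dODN, without which it was also -0.02.

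The ratio of Kit to Cd34 was higher in the 2 libraries of low Fos than in the other 10. Kit RPKM divided by Cd34 RPKM was 1.61, 0.883 and 1.12 in replicates 1 to 3 labelled PBS, 0.825 to 1.65 in the libraries labelled CpG-scrODN, and 1.20, 1.19 and 1.17 in replicates 1 to 3 labelled CpG-STAT3dODN. In the libraries of low Fos it was 4.44 and 4.30. There Cd34 was low while Kit was within the range of its group.

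**Figure D2:**
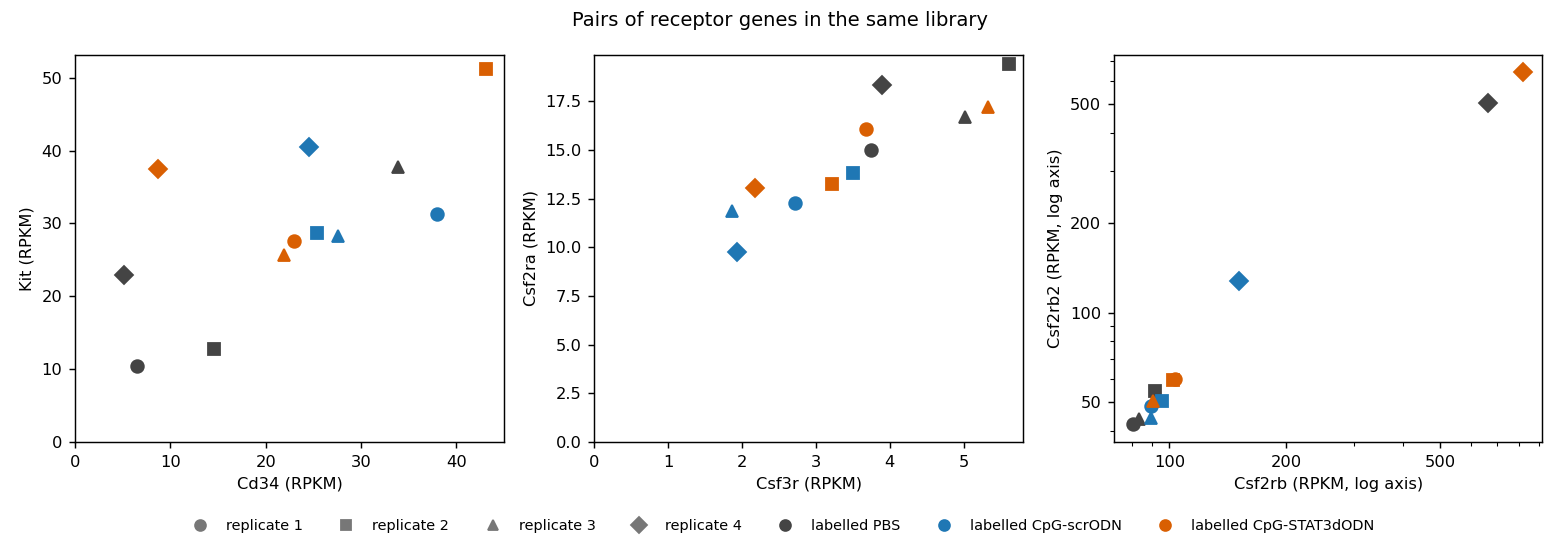
RPKM of 2 receptor genes in the same library for Cd34 and Kit, Csf3r and Csf2ra (linear axes from 0), and Csf2rb and Csf2rb2 (log axes); colours give the labelled group and shapes the replicate number. Replicate 4 labelled PBS and CpG-STAT3dODN leave the Kit and Cd34 trend, with Cd34 at 5.15 and 8.70 RPKM, and lie at the top of the beta chain panel.

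The genes whose log2 pattern over the 12 libraries was most like that of Kit, among the 7877 genes whose RPKM averaged 5 or more, were Hsd17b11 (a hydroxysteroid dehydrogenase, Pearson r = 0.962), Zbtb38 (a methyl-DNA-binding zinc finger protein, r = 0.961) and Rab27b (a small GTPase of secretory vesicles, r = 0.960). Rab27b was at 7.94, 8.78, 13.9 and 12 RPKM in replicates 1 to 4 labelled PBS, and ranged from 12.9 to 17.9 under the label CpG-scrODN and from 11.8 to 16.4 under CpG-STAT3dODN. The points share libraries, line and scaling, and no test was made.

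Csf2rb, the common beta chain on chromosome 15 from 78325800 to 78351001, and Csf2rb2, from 78282507 to 78305721 on the same chromosome, showed the largest differences between libraries, and these did not follow the labelled groups. Csf2rb was at 80.7, 92, 83.6 and 665 RPKM in replicates 1 to 4 labelled PBS. It was at 89.7, 95.7, 89.8 and 151 in those labelled CpG-scrODN and at 104, 102, 91 and 817 in those labelled CpG-STAT3dODN. Replicates 1 to 3 of all 3 groups thus lay between 80.7 and 104 RPKM, and replicate 4 was highest in each group.

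Csf2rb2 repeated this. It was at 42.1, 54.7, 44 and 504 RPKM in replicates 1 to 4 labelled PBS, at 48.5, 50.6, 44.4 and 127 in those labelled CpG-scrODN, and at 60, 59.3, 50.3 and 642 in those labelled CpG-STAT3dODN. Replicate 4 divided by the mean of replicates 1 to 3 was 7.78, 1.65 and 8.26 for Csf2rb in the 3 groups in that order, and 10.7, 2.66 and 11.4 for Csf2rb2. Of all 10886 genes that passed the filter on low values, 0.505% were at least 4 times as high in replicate 4 labelled PBS and in replicate 4 labelled CpG-STAT3dODN as the mean of their replicates 1 to 3. Of the 10 members, Csf2rb and Csf2rb2 were.

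The beta chains are close relatives 20078 bases apart. Of the 50-base stretches in their GENCODE transcripts, 892 were shared, which is 12.3% of those of Csf2rb and 18.4% of those of Csf2rb2, so reads from one could be counted for the other and their separate levels are uncertain. The ratio of Csf2rb2 to Csf2rb was not fixed. It was 0.495 to 0.594 in replicates 1 to 3 of the 3 groups, and 0.758, 0.842 and 0.786 in replicate 4 labelled PBS, CpG-scrODN and CpG-STAT3dODN.

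The alpha chains did not move with the beta chains. The ratio of Csf2ra to Csf2rb was 0.186 to 0.211 in replicates 1 to 3 labelled PBS and 0.0276 in replicate 4. In the libraries labelled CpG-scrODN it was 0.132 to 0.144 in replicates 1 to 3 and 0.0645 in replicate 4, and in those labelled CpG-STAT3dODN it was 0.13 to 0.189 and 0.016. Il3ra, on chromosome 14 from 14345912 to 14355493, was at 7.22, 8.12, 12.1 and 8.78 RPKM in replicates 1 to 4 labelled PBS, at 10.2, 9.55, 8.83 and 9.82 in those labelled CpG-scrODN and at 7.99, 13.9, 8.42 and 8.49 in those labelled CpG-STAT3dODN. Its groups overlapped, and its highest libraries were those of highest Kit and Cd34 in the groups labelled PBS and CpG-STAT3dODN.

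Between groups, Csf2rb differed by -0.46 on the log2 scale for CpG-scrODN minus PBS (95% interval -2.15 to 1.23, limma adjusted p = 0.8), and Csf2rb2 by -0.47 (interval -2.47 to 1.53, limma adjusted p = 0.826). For CpG-STAT3dODN minus PBS the differences were 0.23 and 0.29 (limma adjusted p = 1 for both), and between the labelled oligonucleotide groups 0.69 and 0.76 (limma adjusted p = 0.96 for both). Without the 2 libraries of low Fos, CpG-scrODN minus PBS turned to 0.28 for Csf2rb and 0.38 for Csf2rb2, and CpG-STAT3dODN minus CpG-scrODN to -0.07 and -0.12, none of which passed. Without all 3 libraries numbered 4 the first pair was 0.10 and 0.03. Il3ra differed by 0.10, 0.08 and -0.02 in the 3 comparisons, with all 3 intervals between -0.40 and 0.47 (limma adjusted p = 0.809, 1 and 0.993).

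**Figure D3:**
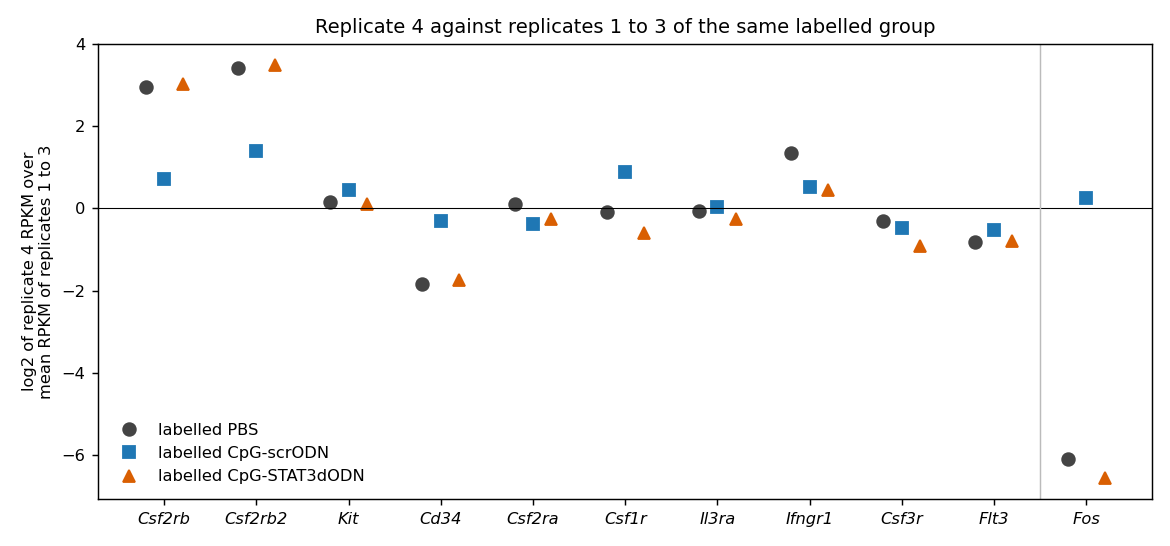
Log2 of the RPKM in replicate 4 over the mean RPKM of replicates 1 to 3 of the same labelled group, for each receptor gene and, right of the line, for Fos; colours and shapes give the group. Csf2rb, Csf2rb2, Ifngr1 and Kit lie above 0 in all 3 groups and Cd34, Csf3r and Flt3 below, while Fos is low in replicate 4 labelled PBS and CpG-STAT3dODN alone.

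In replicate 4, 3 of the 10 members, Csf2rb, Csf2rb2 and Ifngr1, were above replicates 1 to 3 in all 3 groups, where 11.5% of all genes were, and Flt3 and Cd34 were below them in all 3, where 13.2% of all genes were. Cd34 was 3.55 times lower than the mean of replicates 1 to 3 in replicate 4 labelled PBS, 1.24 times lower in that labelled CpG-scrODN and 3.37 times lower in that labelled CpG-STAT3dODN. Beside this, the mean log2 level of 21 immediate-early and stress genes was 4.07 and 3.78 in the libraries of low Fos and 5.27 to 6.39 in the other 10. Fos is itself on this list, so part of this gap follows from how those libraries were named. Markers of mast cells, which also carry Kit, and of basophils were split. Cpa3, a mast cell carboxypeptidase, was at 84.7 and 232 RPKM in the libraries of low Fos and at 251 to 1997 in the others, whereas Hdc, the histamine-forming enzyme, was at 287 and 330 there and at 95.5 to 252 in the others. The mean log2 level of the whole list was 4.64 and 4.52 in the libraries of low Fos, within the 4.45 to 4.99 of the other 10. Over the whole list of 11, of which the mast cell tryptases Tpsab1 and Tpsb2 were listed at 0 in 10 and 11 of the 12 libraries and stayed under an RPKM of 1 in the others, the summed RPKM was 1003 to 2604 labelled PBS, 2356 to 4239 labelled CpG-scrODN and 1340 to 3656 labelled CpG-STAT3dODN. The part of these cells, and of handling, in the beta chain values was not tested.

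Csf2ra, the GM-CSF alpha chain on chromosome 19 from 61217191 to 61228461, was the only member that passed between groups. It was at 15, 19.4, 16.7 and 18.3 RPKM in replicates 1 to 4 labelled PBS and at 12.3, 13.8, 11.9 and 9.75 in those labelled CpG-scrODN, so that these groups did not overlap. In the libraries labelled CpG-STAT3dODN it was at 16.1, 13.3, 17.2 and 13.1, between and within the others. It was lower in the libraries labelled CpG-scrODN than in those labelled PBS by 0.51 ± 0.12 on the log2 scale (SE, difference -0.51, limma adjusted p = 0.0384). CpG-STAT3dODN minus PBS was -0.21 (interval -0.48 to 0.06, limma adjusted p = 0.755), and CpG-STAT3dODN minus CpG-scrODN was 0.30 (interval 0.03 to 0.57, limma adjusted p = 0.96), which passed with library quality weights at 0.33 (limma adjusted p = 0.0184). That was the only 1 of 23 settings in which the last passed. With weights 607 genes were called in that comparison, against 0 in the main fit.

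The call of Csf2ra is fragile. In 23 alternative settings its difference ran from -0.58 to -0.40 with adjusted p from 0.0193 to 0.121, and it passed in 8. It was lost without any 1 of replicates 2, 3 and 4 labelled PBS (limma adjusted p = 0.121, 0.0602 and 0.106), replicates 1, 3 and 4 labelled CpG-scrODN (0.0858, 0.109 and 0.113) or replicate 1 labelled CpG-STAT3dODN (0.0567), and without both libraries of low Fos (0.0599).

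Csf3r, Ifngr1 and Flt3 also did not overlap between the libraries labelled PBS and CpG-scrODN, though none passed. Csf3r was at 3.75, 5.62, 5.03 and 3.90 RPKM in replicates 1 to 4 labelled PBS, at 2.72, 3.50, 1.86 and 1.93 in those labelled CpG-scrODN and at 3.68, 3.22, 5.33 and 2.17 in those labelled CpG-STAT3dODN. The difference for CpG-scrODN minus PBS was -0.68 ± 0.21 (SE, limma adjusted p = 0.121), and for CpG-STAT3dODN it was -0.31 against PBS (limma adjusted p = 0.863) and 0.37 against CpG-scrODN (limma adjusted p = 0.96). Csf3r followed Csf2ra: in each group the library with the highest Csf3r was also the library with the highest Csf2ra.

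Ifngr1, on chromosome 10 from 19591949 to 19610229, was at 8.51, 10.7, 13.2 and 27.4 RPKM in replicates 1 to 4 labelled PBS, at 6.97, 5.99, 4.24 and 8.23 in those labelled CpG-scrODN, and at 8.86, 5.53, 10.6 and 11.4 in those labelled CpG-STAT3dODN. The highest library labelled CpG-scrODN was just below the lowest labelled PBS. The difference was -1.01 ± 0.32 (SE, limma adjusted p = 0.124) for CpG-scrODN minus PBS, -0.57 for CpG-STAT3dODN minus PBS (limma adjusted p = 0.722) and 0.45 for CpG-STAT3dODN minus CpG-scrODN (limma adjusted p = 0.96). With library quality weights, where many more genes were called than in the main fit, the first and the last passed, at -0.82 and 0.64 (limma adjusted p = 0.0181 and 0.0198). Of 23 settings the first passed in 2 and the last in 1. Without both libraries of low Fos the 3 Ifngr1 differences were -0.69, -0.36 and 0.33, none of which passed, and without replicate 4 labelled PBS alone the second was -0.245. Its partner chain Ifngr2, chosen with its values known, was at 12.5, 9.15, 9.19 and 27.4 RPKM in replicates 1 to 4 labelled PBS, at 6.98 to 7.41 in the libraries labelled CpG-scrODN and at 8.35, 7.17, 8.58 and 21.6 in replicates 1 to 4 labelled CpG-STAT3dODN, high in both libraries of low Fos.

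Flt3, on chromosome 5 from 147330741 to 147400489, was near the filter on low values. It was at 1.28, 1.57, 2.05 and 0.926 RPKM in replicates 1 to 4 labelled PBS, at 0.898, 0.731, 0.563 and 0.505 in those labelled CpG-scrODN, and at 1.01, 0.782, 0.759 and 0.493 in those labelled CpG-STAT3dODN. The lowest library labelled PBS was just above the highest labelled CpG-scrODN and below 1 of those labelled CpG-STAT3dODN. The difference from PBS was -0.54 ± 0.15 (SE, limma adjusted p = 0.0809) for CpG-scrODN and -0.47 ± 0.15 (SE, limma adjusted p = 0.223) for CpG-STAT3dODN, and between the last 2 it was 0.07 (limma adjusted p = 0.961). Without both libraries of low Fos the first was -0.65 and passed (limma adjusted p = 0.0139). That comparison passed in 4 of the 18 alternative settings that gave Flt3 a value. Since Flt3 passed the filter through the group where it was highest, its difference carries no weight beyond these values.

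Csf1r, the M-CSF receptor on chromosome 18, was at 14.1, 14.6, 10.3 and 12.3 RPKM in replicates 1 to 4 labelled PBS, at 8.04, 6.80, 7.95 and 14 in those labelled CpG-scrODN and at 11.6, 6.16, 8.44 and 5.82 in those labelled CpG-STAT3dODN. Replicate 4 labelled CpG-scrODN was among the libraries labelled PBS, so the groups overlapped. The difference from PBS was -0.47 ± 0.23 (SE, limma adjusted p = 0.349) for CpG-scrODN and -0.65 ± 0.23 (SE, limma adjusted p = 0.292) for CpG-STAT3dODN, and CpG-STAT3dODN minus CpG-scrODN was -0.17 (limma adjusted p = 0.96). With library quality weights, where many more genes were called than in the main fit, the first passed at -0.77 (limma adjusted p = 0.015). This was the only 1 of 23 settings in which it did.

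**Figure D4:**
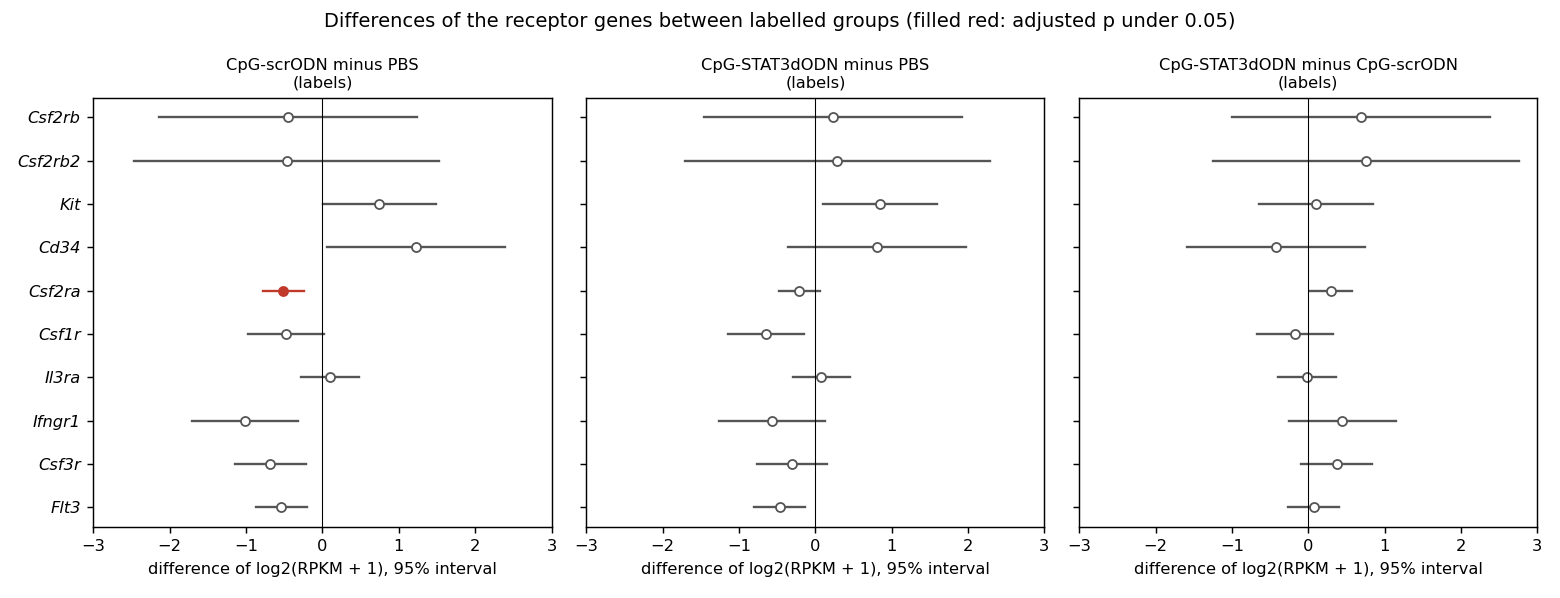
Difference of log2(RPKM + 1) with its 95% interval for each receptor gene in the 3 comparisons of labelled groups; a filled red point marks an adjusted p under 0.05. Csf2ra in CpG-scrODN minus PBS is the only filled point, at -0.51.

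For CpG-scrODN minus PBS, 1 of 10 members was called, where 4.15% of all 10886 genes were, 4.04% as lower. The groups did not overlap for 4 members, in either direction, where 13.9% of all genes did not. One of them, Flt3, passed the filter only through the group where it was high, which leaves 3 (Csf2ra, Csf3r and Ifngr1). All 4 were lower under the label CpG-scrODN, and of all genes without overlap 1094 were lower and 417 higher. Called as higher were 0 members and 0.110% of all genes. The median difference of the members was -0.47 and that of all genes -0.05. At an unadjusted p under 0.05 there were 6 members, 5 without Flt3, and 15.6% of all genes. Between CpG-STAT3dODN and PBS, limma called 0 members, where 1.86% of all genes were called, with 3 members and 9.40% of all genes at an unadjusted p under 0.05. There 0 members were without overlap, where 5.04% of all genes were, and the medians were -0.07 and -0.01. The 3 members below that unadjusted threshold were Kit, Csf1r and Flt3, and Flt3 is counted in the member median of every comparison. Of the 10 members 5 were higher and 5, Flt3 among them, lower, so the sign of the median of -0.07 rests on Flt3. For CpG-STAT3dODN minus CpG-scrODN, limma called 0 members and 0 genes, with 1 member and 2.71% of all genes at an unadjusted p under 0.05, medians of 0.20 and 0.03, and 0 members without overlap against 4.25% of all genes. The comparisons share libraries and are not independent of each other. Without both libraries of low Fos, CpG-STAT3dODN minus PBS moved to -0.13 for Csf2ra and -0.20 for Csf3r, and CpG-STAT3dODN minus CpG-scrODN to 0.05 for Kit, -0.06 for Csf1r and 0.15 for Flt3, none of which passed.

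Markers of other blood cells differed between the same groups. Of all genes, 4.04% were called as lower for CpG-scrODN minus PBS, and 1.86% were called in either direction for CpG-STAT3dODN minus PBS. All 13 tested B-cell markers were lower in the libraries labelled CpG-scrODN than in those labelled PBS, with summed levels of 26.6 to 46.7 against 244 to 824 RPKM, and 11 of 13 were lower in those labelled CpG-STAT3dODN, at 48.2 to 138 RPKM. None of the 14 measured was at 0 in any group, but 6 stayed under an RPKM of 1 in every library labelled CpG-scrODN. Some tested B-cell markers may thus have passed the filter only through groups where they were higher. Of 17 tested monocyte and macrophage markers 4 were lower in the libraries labelled CpG-scrODN and 2 in those labelled CpG-STAT3dODN, with summed levels of 433 to 683 RPKM labelled PBS, 237 to 340 labelled CpG-scrODN and 294 to 504 labelled CpG-STAT3dODN, and none of the 20 measured at 0. Of 9 tested genes on a list for progenitors with primary granules, 6 were lower in the libraries labelled CpG-scrODN and 0 passed for CpG-STAT3dODN. The list medians against PBS were -1.48 and -0.89. The summed levels, which weigh abundant genes most, were 1348 to 1567, 1273 to 1371 and 1333 to 1636 RPKM. Of 11 mature neutrophil markers 0 passed in either comparison, with 1796 to 5516, 570 to 2388 and 1962 to 4472 RPKM. Dendritic cell markers were lower for 3 of 6 tested under the label CpG-scrODN and 2 of 6 under CpG-STAT3dODN, with summed levels of 133 to 166, 61.9 to 82.4 and 69.4 to 88 RPKM, and none of the 12 measured at 0. Flt3 is itself on this list, among the 6 tested and in the sums, though not among those called lower. The list is therefore not separate from Flt3. For T and NK cells 4 of 5 and 3 of 5 were lower, with 20.7 to 67.2, 3.52 to 7.56 and 4.15 to 8.29 RPKM and none of 12 at 0. For plasma cells 3 of 5 and 2 of 5 were lower, with 104 to 156, 41.8 to 65.6 and 71.4 to 88.8 RPKM, and 1 of 7 at 0 under the label CpG-scrODN. Under that label 3 of the 7 plasma cell markers and 8 of the 12 dendritic cell markers stayed under an RPKM of 1. So did 9 of the 12 T and NK cell markers, and 8 of these 12 under the label CpG-STAT3dODN. The same limit of the filter holds for these 3 lists. The part of these lists in the values of Csf2ra, Csf3r, Csf1r, Ifngr1 and Flt3, several of which such cells carry, was not tested.

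Of the ligands of these receptors, 2 of 9 were abundant enough to test and 0 passed in the 3 comparisons. Flt3l, the ligand of Flt3, ranged from 12.9 to 25 RPKM under the label PBS, from 19.7 to 26.1 under CpG-scrODN and from 14.9 to 33.1 under CpG-STAT3dODN, above the level of Flt3 itself in every library. Csf1, encoding M-CSF, was at 0.744 to 2, 1.10 to 1.38 and 0.957 to 1.80 RPKM. Il3 was listed at 0 in all 12 libraries, and Kitl, the Kit ligand, was at 0.0273 RPKM or less.

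Of 31 tested partner chains and other cytokine receptors, 5 were lower under the label CpG-scrODN than under PBS and none was higher. Of all genes, 4.04% were called as lower and 0.110% as higher. The list median was -0.28 against -0.05 for all genes. Il21r, the IL-21 receptor that B and T cells carry, was at 6.23 to 18.6 RPKM labelled PBS and 0.442 to 1.08 labelled CpG-scrODN, lower by 2.49 ± 0.38 on the log2 scale (SE, difference -2.49, limma adjusted p = 0.00263). The chemokine receptor Cxcr4, the TNF receptor Tnfrsf1a, the IL-6 receptor Il6ra and the interferon receptor chain Ifnar2 differed by -1.77, -0.93, -0.64 and -0.43 (limma adjusted p = 0.0404, 0.0225, 0.0238 and 0.0216). For CpG-STAT3dODN minus PBS 1 of the 31 was called, Il21r at -1.79 (limma adjusted p = 0.0365), where 1.86% of all genes were. The medians were -0.06 for the list and -0.01 for all genes.

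Of 61 tested signalling proteins at or below these receptors, 5 were lower and 0 higher under the label CpG-scrODN. Of all genes, 4.04% were called as lower and 0.110% as higher. The list median was -0.05, as for all genes. Cblb, a ubiquitin ligase that turns off activated receptors, was at 4.14 to 19.2 RPKM labelled PBS and 1.96 to 2.36 labelled CpG-scrODN, a difference of -1.49 (limma adjusted p = 0.0245). Stap1, an adaptor first known as a Kit partner, differed by -1.49, the adaptor Dok3 by -1.22 and the phospholipase Plcg2 by -0.62 (limma adjusted p = 0.0158, 0.0111 and 0.034). None of the 61 passed between CpG-STAT3dODN and PBS, where 1.86% of all genes were called.

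Under the label CpG-scrODN, 4.04% of all genes were called as lower and 0.110% as higher. Of 26 tested transcription factors known to act at these receptor genes, 5 were lower there and 0 higher. They were Irf8, a monocyte and dendritic cell factor, at 17.2 to 42.4 RPKM labelled PBS and 2.33 to 4.41 labelled CpG-scrODN, with a difference of -2.53 (limma adjusted p = 0.000265), and Cebpe, Klf4, Tcf4 and Gfi1 at -1.36, -0.96, -0.93 and -0.91 (limma adjusted p = 0.0189, 0.0341, 0.0253 and 0.015). Irf8 alone passed for CpG-STAT3dODN minus PBS, at -2.02 (limma adjusted p = 0.00191), where 1.86% of all genes were called. Spi1, which encodes PU.1, did not pass and was at 51 to 87.4 RPKM labelled PBS, 53.7 to 59.7 labelled CpG-scrODN and 61.3 to 95.4 labelled CpG-STAT3dODN.

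Of 14 tested stem and progenitor surface and state genes, 4 were lower and 0 higher under the label CpG-scrODN, with a median of -0.53. Of all genes, 4.04% were called as lower and 0.110% as higher. Ly6a, which encodes Sca-1, was at 22, 17.4, 14.7 and 95.5 RPKM in replicates 1 to 4 labelled PBS and at 1.89 to 3.60 in the libraries labelled CpG-scrODN, a difference of -2.84 (limma adjusted p = 0.00561). Cd38, Cd53 and Cd9 differed by -2.15, -1.92 and -1.29 (limma adjusted p = 0.000391, 0.0117 and 0.0355). Lymphocytes also carry these 4. Between CpG-STAT3dODN and PBS 1 of the 14 was called, Cd38 at -2.17 (limma adjusted p = 0.000818), where 1.86% of all genes were. For CpG-STAT3dODN minus CpG-scrODN 0 members of any of these 5 lists were called, and 0 of all genes.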

How the data were processed

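The RPKM per gene is the unit the authors deposited, and no other file was used; each file is a single library. The submitters' processing notes name mm10, TopHat 1.3.1 and Partek 6.12.0713 without giving their roles; the sources used here do not state the annotation or any filter. RPKM scales each library to its own total, so a few very abundant genes can shift the rest. Whole reads came out for 63.5% to 65.7% of low values of single-transcript genes within 0.05 of a read, too few for a count test. No libraries held identical values, and pairs within a group differed by 15.65 to 344 chi-square units per degree of freedom, above sampling noise.

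A gene was kept where 4 or more of the 12 libraries reached an RPKM of 1 (10886, with all 10 members). A limma 3.58.1 model (R 4.3.3) with an intensity trend was fitted to log2(RPKM + 1) over all 12 libraries and 3 labelled groups, two-sided, with Benjamini-Hochberg adjustment over all genes kept and a threshold of 0.05. The fit was tested on simulated data. Genes named were all members; in each pathway list the called genes, at most 6 (1 called signalling gene is not reported here); and, for Kit and called members, the 3 genes most like them by Pearson r. Other genes named were chosen after their values were seen. The members and lists were chosen with earlier results of these data known. Alternatives covered the pseudocount, the filter, scaling, trend, weights, replicate block, samples in the fit and libraries left out. Positions and promoters came from RefSeq (GRCm38.p6), and transcripts and strands from GENCODE vM21.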

Additional observations from a re-analysis of the deposited data

Results flagged for a closer look

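In 7 of 30 sets of 4 libraries (10 members in 3 labelled groups), 1 library lay so far from the other 3 that its gap, as a share of the whole range, was above Dixon's 95% critical value. The rate of about 1 in 20 by chance holds for independent sets of normal values. These sets hold raw RPKM and share their libraries, so the 7 of 30 cannot be measured against it.

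For Csf2rb the highest library stood apart in each group, at 665 RPKM labelled PBS, 151 RPKM labelled CpG-scrODN and 817 RPKM labelled CpG-STAT3dODN, each of them replicate 4. For Csf2rb2 it was again replicate 4 in each group, at 504, 127 and 642 RPKM in that order. The 2 genes share sequence and are not independent. For Il3ra the highest library labelled CpG-STAT3dODN, replicate 2, was at 13.9 RPKM against 7.99 to 8.49 in the other 3. That library also had the highest Kit and Cd34 of its group.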

How the results depend on the processing

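Of 672 recomputed member differences, 613 kept their direction and side of the threshold, 15 were lost, 13 passed newly and 31 turned sign. The 15 lost were all of Csf2ra in CpG-scrODN minus PBS. All counts here are limma calls.

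For CpG-scrODN minus PBS the 1 called member became 0 without the filter, with an RPKM floor of 5, with quantile normalization, with size factors and with 2 groups only, and 6 with library quality weights. All genes called went from 452 to 163 with the floor and 1812 with weights. Quantile normalization split them 75 higher and 318 lower, against 12 and 440, and without both libraries of low Fos the split was 100 and 474. On leaving out 1 library, members called ran from 0 to 1 and genes from 281 to 556. Without replicate 4 labelled PBS the 1 member called was Flt3 (limma adjusted p = 0.03), and Csf2ra was lost (0.106). The same exchange was seen without both libraries of low Fos and without all 3 libraries numbered 4. For CpG-STAT3dODN minus PBS, 0 members became 2 with weights, and 202 genes became 76 with the floor, 78 with 2 groups only, 1248 with weights and 96 to 218 on leaving out 1 library. For CpG-STAT3dODN minus CpG-scrODN, 0 genes became 1 with 2 groups only and 607 with weights, and 0 members became 2 with weights. The 96 was without replicate 1 labelled PBS, the 121 genes without replicate 2 labelled CpG-STAT3dODN and the 281 without replicate 3 labelled CpG-scrODN. The cause of these shifts was not tested.

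Signs turned on members that did not pass. For CpG-scrODN minus PBS, Csf2rb was 0.026 with weights, 0.281 without both libraries of low Fos and 0.102 without all 3 numbered 4, and -0.728 to 0.281 on leaving out 1 library; Csf2rb2 was 0.382 and 0.033 in the latter 2, and -0.819 to 0.382. For CpG-STAT3dODN minus PBS, leaving out 1 library gave -0.528 to 0.967 for Csf2rb, -0.584 to 1.139 for Csf2rb2 and -0.091 to 0.214 for Il3ra. For CpG-STAT3dODN minus CpG-scrODN, Flt3 was -0.014 with quantile normalization. With weights Kit was -0.058 and Csf1r 0.454. Without both libraries of low Fos Csf2rb was -0.073, Csf2rb2 -0.115 and Il3ra 0.029. Without all 3 numbered 4 Csf1r was 0.145 and Il3ra 0.04. On leaving out 1 library Csf2rb was -0.073 to 0.978, Csf2rb2 -0.115 to 1.106, Il3ra -0.188 to 0.055, Kit -0.093 to 0.229 and Csf1r -0.352 to 0.026.

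Same-numbered libraries did not deviate together in every pair (correlations of -0.341 to 0.817 over the 3 comparisons), so the numbers were not taken to pair the libraries. Those numbered 4 did correlate best with each other, at 0.193, 0.817 and 0.151 in CpG-scrODN with PBS, CpG-STAT3dODN with PBS and CpG-STAT3dODN with CpG-scrODN. With the replicate block, members called in CpG-scrODN minus PBS stayed at 1, but Csf2ra was lost (-0.511, adjusted p = 0.0565) and Ifngr1 passed (-1.014, adjusted p = 0.0489), and the genes called were 523, 213 and 0 in the 3 comparisons. Flt3 gave no value with the floor of 5 or where leaving out PBS replicate 1, 2 or 3, or CpG-STAT3dODN replicate 1, took it under the filter, and Csf3r none with the floor of 5.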

Other observations

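The genes whose pattern over the 12 libraries was most like that of Csf2rb, picked after its values were seen, were Hamp (the iron hormone hepcidin, r = 0.995), Csf2rb2 (r = 0.993) and Fam13b (r = 0.993), over 7877 genes, as a description that rests on 3 libraries. Hamp was at 33.7 and 48.7 RPKM in replicate 4 labelled PBS and CpG-STAT3dODN, at 1.76 in replicate 4 labelled CpG-scrODN, and at 0.147 or less in the other 9. Csf2rb2 itself came after 3 genes among those whose RPKM averaged 5 or more when ordered by the smaller of the replicate 4 folds labelled PBS and CpG-STAT3dODN. These were Spint1, a protease inhibitor, at 25.2 and 22.5 times the mean of replicates 1 to 3, Traf1, an adaptor of TNF receptor signalling, at 21.6 and 61.2 times, and Ccr7, a lymphoid homing receptor, at 11.5 and 18.3 times. In replicate 4 labelled CpG-scrODN, where Csf2rb and Csf2rb2 were 1.65 and 2.66 times the mean of replicates 1 to 3, these 3 were at 0.356, 1.33 and 0.933 times.

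Genes most like Csf2ra over the 12 libraries were Chst12, a sulfotransferase (r = 0.930), Ckap4, an endoplasmic reticulum membrane protein (r = 0.926), and Hk3, a myeloid hexokinase (r = 0.921). Hk3 ranged from 7.27 to 12.4 RPKM under the label PBS, from 2.02 to 4.35 under CpG-scrODN and from 2.61 to 9.17 under CpG-STAT3dODN.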
